A study of Mus musculus with 6 samples.

Results

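Angptl4, Creb3l3, Pdk4, Cpt1a, Ppara and Ppargc1a are 6 genes of the fasting response that the nuclear receptor PPAR-alpha directs, and they were followed here in the ileum of wild type mice and of mice lacking Toll-like receptor 4 in the intestinal epithelium. The 6 genes were taken by symbol, with earlier results of these data known, from the 21950 gene symbols listed in both deposited columns, and all 6 were found. All mice were C57BL/6 and 24 weeks old. The wild type group held 3 mice, and the TLR4ΔIEC group held 3 mice with a conditional knockout, in intestinal epithelial cells, of Tlr4, which encodes the receptor for bacterial lipopolysaccharide. For the Cre driver, the sex of the mice and whether they were fed or fasted before sampling, the sources used here give no entry. Total RNA of whole ileum was depleted of ribosomal RNA and made into 1 barcoded whole-transcriptome library per mouse. The deposited values are 1 column of average coverage for each genotype, shared by its 3 mice. Every value below is therefore that of a pool, with no spread between mice and no p-value. Each genotype has its own pool label, so genotype and any batch difference between the pools cannot be told apart.

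PPAR-alpha, the product of Ppara, pairs with a retinoid X receptor and switches on genes of fatty acid use when fatty acids reach the cell. In fasting the liver relies on it to burn fat and make ketone bodies, and the enterocytes of the small intestine, which meet dietary fat, use it too. PGC-1alpha, the product of Ppargc1a, is a coactivator of PPAR-alpha and of mitochondrial genes. CREB3L3 is a transcription factor anchored in the endoplasmic reticulum of liver and small intestine. It is freed by proteolysis in the Golgi, works together with PPAR-alpha, and activates genes of lipoproteins and fasting hormones. Among the targets, ANGPTL4 is a secreted inhibitor of lipoprotein lipase, PDK4 is a kinase that turns off pyruvate dehydrogenase and so spares glucose, and CPT1A carries out the step that commits long-chain fatty acids to oxidation in mitochondria.

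Angptl4 and Creb3l3 were the members that differed by 2-fold or more. Angptl4 was 4.01-fold lower and Creb3l3 3.56-fold lower in the TLR4ΔIEC pool, Pdk4 was weakly covered and 1.92-fold lower, and Cpt1a, Ppara and Ppargc1a lay within 2-fold. These folds, and all log2 ratios below, were taken after scaling the columns to each other and adding 1 unit to each value, where units are coverage scaled to a mean total of 1000000 per column. No member was at least 2-fold higher. A low value in whole tissue can come from fewer cells of a type or from less RNA per cell, and these cannot be told apart here.

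Sequence of the start of Creb3l3 is shown because it was the most abundant of the members that were lower, and that of Cpt1a because it was a PPAR-alpha target of similar mean level that was not. The windows are from RefSeq (GRCm38.p6) and run from 250 bases before to 50 bases after a start site, written 5′ to 3′ on the strand of the gene. A window was found for 5 of the 6 members, all but Angptl4, and Creb3l3 had 2 windows, which gives 6 in all. Capitals mark AGGTCA, the hexamer that nuclear receptors such as PPAR-alpha and its partner bind, or its reverse complement.
Creb3l3, outer start, chr10:81098823-81099122, minus strand: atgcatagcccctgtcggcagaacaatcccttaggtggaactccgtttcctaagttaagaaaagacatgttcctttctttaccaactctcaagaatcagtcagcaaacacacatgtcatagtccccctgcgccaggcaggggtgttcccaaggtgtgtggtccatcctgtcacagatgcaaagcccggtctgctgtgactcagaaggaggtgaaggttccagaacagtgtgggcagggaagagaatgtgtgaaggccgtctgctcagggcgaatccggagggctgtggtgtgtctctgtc
Creb3l3, inner start, chr10:81092542-81092841, minus strand: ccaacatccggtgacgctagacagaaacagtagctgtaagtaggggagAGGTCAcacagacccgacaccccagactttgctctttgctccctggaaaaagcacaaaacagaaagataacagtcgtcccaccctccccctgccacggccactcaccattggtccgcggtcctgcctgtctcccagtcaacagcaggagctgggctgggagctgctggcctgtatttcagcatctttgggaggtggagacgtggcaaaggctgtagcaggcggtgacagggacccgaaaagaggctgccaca
Cpt1a, chr19:3323051-3323350, plus strand: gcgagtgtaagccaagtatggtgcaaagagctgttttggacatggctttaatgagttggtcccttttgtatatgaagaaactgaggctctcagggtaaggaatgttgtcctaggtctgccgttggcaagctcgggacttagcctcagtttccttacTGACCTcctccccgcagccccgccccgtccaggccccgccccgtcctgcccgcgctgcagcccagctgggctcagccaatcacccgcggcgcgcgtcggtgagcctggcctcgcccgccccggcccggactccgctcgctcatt
The outer Creb3l3 window is the one at the end of the gene as RefSeq gives it, and it held no AGGTCA on either strand. The inner Creb3l3 window held 1, from 202 bases before the start site, and the Cpt1a window held 1 on the opposite strand, whose first base lies 94 bases before the start site. The windows of Pdk4, Ppara and Ppargc1a held none. For comparison, 16.3% of all 32851 RefSeq windows of this length held AGGTCA on either strand. The classical PPAR element, a direct repeat in which AGGTCA occurs 2 times with 1 base of any kind (N) between the copies, was searched on both strands and was in none of the 6 windows and in 0.0396% of all windows. TGACGT, a core of cAMP response elements, was in the Ppargc1a window only among the members and in 7.51% of all windows. A match or its absence describes these letters in these windows, and elements elsewhere in the genes were not searched.

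**Figure D1:**
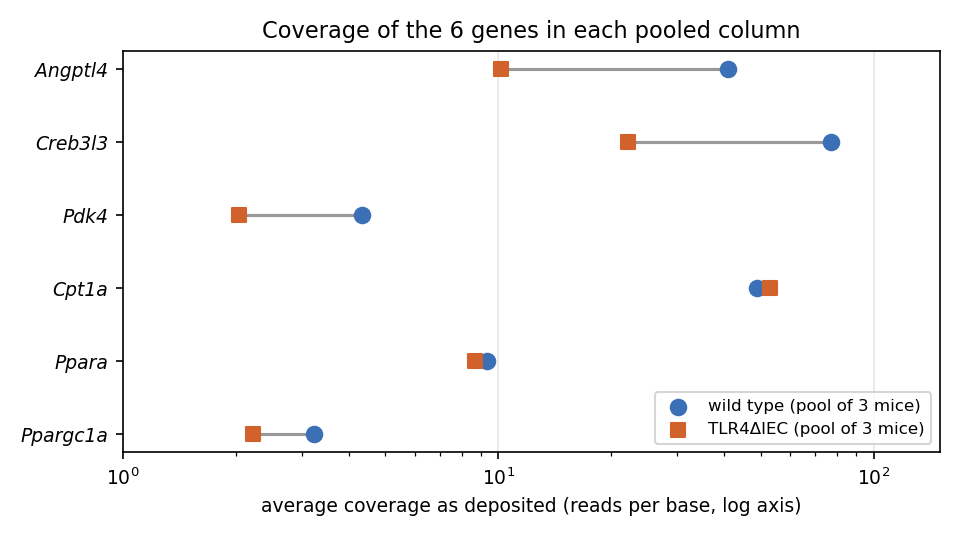
Average coverage of the 6 genes as deposited (horizontal axis, reads per base, log scale) in the wild type pool (circles) and the TLR4ΔIEC pool (squares), each 1 value for 3 mice, so there are no error bars. Angptl4 goes from 41.0 to 10.2 and Creb3l3 from 76.9 to 22.1, while the values of Cpt1a and Ppara nearly coincide.

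Tlr4, the targeted gene, had a coverage of 1.98 reads per base in the wild type pool and 1.60 in the TLR4ΔIEC pool, a log2 ratio of -0.27. Nonepithelial cells of the ileum still carry intact Tlr4, and coverage was averaged over the whole transcript, so this value is a weak check of the labels. The wild type column listed 22724 entries with a median coverage of 1.57, and the TLR4ΔIEC column listed 22687 with a median of 1.70. The ileal identity of the tissue was clear in both pools: the ileal bile acid binding protein Fabp6 had 15350 units in the wild type pool and 13628 in the TLR4ΔIEC pool, and the ileal bile acid transporter Slc10a2 had 93.0 and 93.7. A filter kept 8891 genes that averaged 5 units or more over both columns, and 4 of the 6 members passed it, namely Angptl4, Creb3l3, Cpt1a and Ppara. Pdk4 (4.62 units on average) and Ppargc1a (3.93 units) fell just below it and are described without being counted. In the TLR4ΔIEC pool 2.79% of the 8891 genes were lower by 2-fold or more, and 1.29% were higher by as much. Of the 4 members kept, 2 were lower by 2-fold or more and 0 were higher, with a median log2 ratio of -0.998. That median falls between Creb3l3 (-1.83) and Ppara (-0.16), so no kept member is near it. Over all 6 members the median was -0.71. Since the members were chosen with results known, these counts describe them and support nothing beyond that.

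The transcription factors and the coactivator come first. Creb3l3 (chromosome 10, 81084324 to 81098874, minus strand, GENCODE vM21 on GRCm38; 12 exons in the matched transcript) had a coverage of 76.9 reads per base in the wild type pool and 22.1 in the TLR4ΔIEC pool. The averages rested on 169693 and 48802 bases of reads over the same 2207 bases of transcript. Such bases and lengths, here and below, are the smallest whole numbers that give the deposited averages, so the true ones may be multiples of them. On the scaled axis this was 113 units in the wild type pool and 30.9 in the TLR4ΔIEC pool, a log2 ratio of -1.83. Among 1601 genes whose mean level lay within 2-fold of that of Creb3l3, the middle 90% of log2 ratios ran from -0.87 to 0.65. Creb3l3 thus lay well below most genes of its own level, and 28 of the 8891 genes had a lower ratio. In wild type its level was above that of 96.1% of all 21950 genes, and in TLR4ΔIEC above that of 88.5%.

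Ppara (chromosome 15, 85734983 to 85802819, plus strand; 8 exons in each of 2 matched transcripts) did not follow Creb3l3. Its coverage was 9.32 reads per base in the wild type pool and 8.67 in the TLR4ΔIEC pool, which gave 13.7 and 12.1 units and a log2 ratio of -0.16. That ratio lies within the middle 90% of 4922 genes of similar level, which ran from -0.73 to 0.64. The averages of Ppara did not rest on the same length in both columns, so small differences in its value cannot be read. Ppargc1a (chromosome 5, 51454250 to 51567726, minus strand; 13 exons) was weakly covered in both pools, at 3.24 reads per base in wild type and 2.22 in TLR4ΔIEC. The log2 ratio was -0.49, inside the range of -0.71 to 0.74 that held the middle 90% of 4695 genes of similar level. The averages came from 21292 and 14572 bases of reads over 6569 bases of transcript. It was the only member that overlapped other annotated genes, namely 4 short unnamed models that lie inside it.

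Of the secreted and enzymatic targets, Angptl4 (chromosome 17, 33773750 to 33781830, minus strand; 7 exons) had the lowest ratio of the 6 genes. Its coverage was 41.0 reads per base in the wild type pool and 10.2 in the TLR4ΔIEC pool. These averages rested on 78098 and 19394 bases of reads over the same 1903 bases of transcript. In scaled units Angptl4 was at 60.2 in wild type and 14.2 in TLR4ΔIEC, a log2 ratio of -2.004, and 17 of the 8891 genes had a lower one. The middle 90% of log2 ratios among 2710 genes of similar level ran from -0.85 to 0.62. In the order of all genes by level, Angptl4 stood at rank 1478 in wild type and at rank 4785 in TLR4ΔIEC.

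Pdk4 (chromosome 6, 5483351 to 5496309, minus strand; 11 exons) had a coverage of 4.35 reads per base in the wild type pool and 2.04 in the TLR4ΔIEC pool, or 6.38 and 2.85 units. Its log2 ratio was -0.94, just short of 2-fold, and -1.16 without the added unit. The ratio lies below the range of -0.70 to 0.72 that held the middle 90% of 4924 genes of similar level, of which 2.44% had a lower ratio. The averages of Pdk4 rested on different lengths in the 2 columns, and the part of this in the ratio was not tested. When the filter was set at 1 unit, which takes in 13428 genes including Pdk4 and Ppargc1a, 2.83% of them were at least 2-fold lower.

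Cpt1a (chromosome 19, 3322334 to 3385733, plus strand; 19 exons) was as well covered as Creb3l3 and showed no such difference. Its coverage was 48.8 reads per base in the wild type pool and 53.0 in the TLR4ΔIEC pool, from 210024 and 227853 bases of reads over 4301 bases of transcript. In scaled units it was at 71.6 and 74.1, a log2 ratio of 0.05. Coverage is an average per base, so levels can be set beside each other within a column. In wild type the order was Creb3l3, Cpt1a, Angptl4, Ppara, Pdk4 and Ppargc1a, and in TLR4ΔIEC it was Cpt1a, Creb3l3, Angptl4, Ppara, Ppargc1a and Pdk4. Creb3l3 had 1.57 times the coverage of Cpt1a in wild type and 0.417 times in TLR4ΔIEC. Angptl4 had 4.40 times the coverage of Ppara in wild type and 1.18 times in TLR4ΔIEC. With 1 pooled value each, it cannot be said which neighbours in these orders differ beyond the spread between mice.

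**Figure D2:**
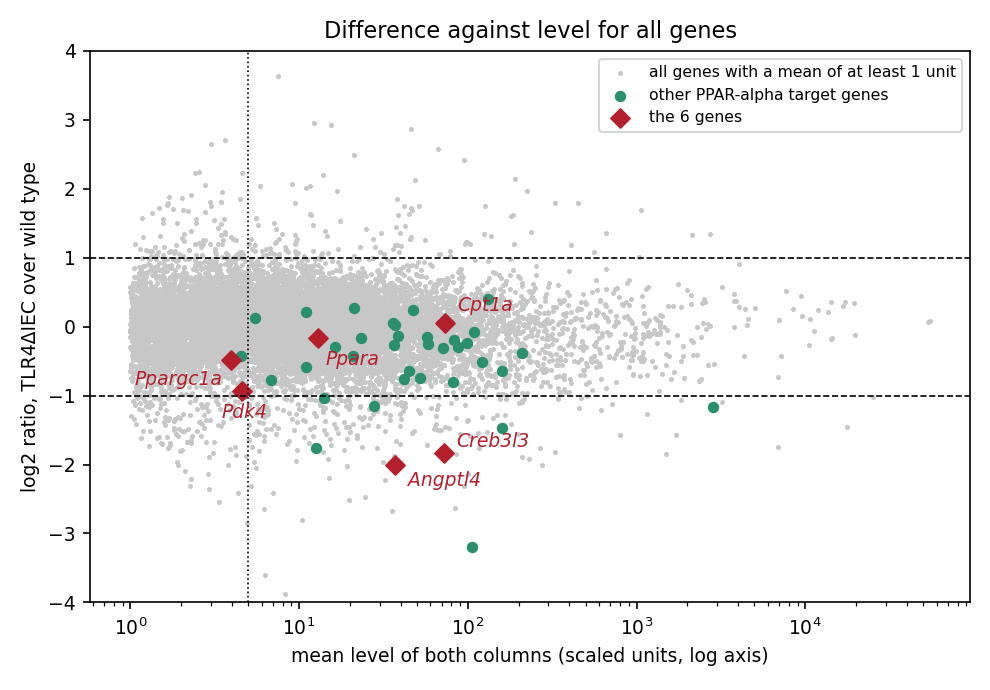
Log2 ratio of TLR4ΔIEC over wild type (vertical axis) against the mean level of both columns in scaled units (horizontal axis, log scale) for genes averaging 1 unit or more (grey), with the 6 genes as diamonds, other PPAR-alpha targets in green, dashed lines at 2-fold and a dotted line at the filter of 5 units. Angptl4 (-2.004) and Creb3l3 (-1.83) lie below the cloud of genes of their level, and Cpt1a (0.05) lies in its middle.

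By closeness of the pair of scaled levels on a log2 scale (Euclidean distance over the 2 columns, 3684 genes averaging 20 units or more), the genes most like Angptl4 were the interferon-inducible Ifi27l2a (58.3 units in the wild type pool and 15.1 in the TLR4ΔIEC pool), Marcksl1 (57.3 and 17.4) and the glucocorticoid-induced kinase Sgk1 (61.2 and 18.1). Those most like Creb3l3 were the immediate early gene Junb (99.0 and 34.2), Mettl7b (102.9 and 35.8) and the steroid dehydrogenase Hsd17b2 (93.3 and 32.8). Junb overlaps Prdx2 on the opposite strand, so its value is uncertain where strand was not used. With only 2 columns, this likeness says that level and difference are alike and no more.

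The wider set of PPAR-alpha targets lay below wild type less steeply than Angptl4. Of 42 other target genes, 34 passed the filter, and 27 of these had a log2 ratio below 0 and 7 above. The number at least 2-fold lower was 6, and 0 were at least 2-fold higher. The median was -0.30, beside a median of 0.03 over all 8891 genes, of which 4211 lay below 0. The fatty acid binding proteins Fabp1 (191.8 units in the wild type pool and 20.03 in the TLR4ΔIEC pool, log2 ratio -3.20) and Fabp2 (3942 and 1750, -1.17) were among the low ones. So was the peroxisomal thiolase Acaa1b (38.4 and 16.8, -1.15). Fabp1 is also on the list of upper small intestine genes and Fabp2 on that of enterocyte markers, so they are not separate evidence there. The Cyp4a genes, classical targets in liver, were hardly covered: Cyp4a10, Cyp4a14, Cyp4a31 and Cyp4a32, named after their values were seen, all lay below 1 unit in both pools. Some of them are close copies of each other, whose single values are uncertain.

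Receptors, partners and coregulators of the PPARs showed no common direction as a whole, but the better covered ones lay below 0. Of 22 genes 16 passed the filter, 8 of them below 0 and 8 above, with 0 at least 2-fold in either direction. The median was -0.01, and it lay above 0 under 6 of the alternative settings. Those averaging 20 units or more (Esrra, Rxra, Ncor1, Nrip1, Lpin2, Ppard and Rxrb) all lay below 0, with a median of -0.26. Ppard, which encodes the PPAR of broad expression, was at 26.4 units in the wild type pool and 16.4 in the TLR4ΔIEC pool, a log2 ratio of -0.65. Pparg, the PPAR of adipocytes, was at 7.72 and 7.88 units, and the retinoid X receptor Rxra at 36.3 and 30.1 (-0.26). The nuclear receptor Esrra, a partner of PGC-1alpha, was at 101.7 and 64.8 units (-0.64), and the lipin Lpin2 at 27.4 and 18.2 (-0.56). Ppargc1b, the close relative of Ppargc1a, was weakly covered, at 3.22 units in the wild type pool and 5.16 in the TLR4ΔIEC pool.

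Around Cpt1a, the genes of the carnitine shuttle were taken as 1 list with the malonyl-CoA genes Acaca, Acacb and Mlycd. Most of those that passed the filter had ratios below 0. Of 10 genes 7 passed, 5 below 0 and 2 above, with 0 at least 2-fold in either direction. The median was -0.25 and the range ran from -0.60 (Crat) to 0.49 (Acaca). Cpt2, the inner membrane partner of Cpt1a, was at 43.4 units in the wild type pool and 51.7 in the TLR4ΔIEC pool (0.25), and the carrier Slc25a20 at 39.99 and 33.1 (-0.26). The peroxisomal acyltransferase Crot was at -0.25. The muscle form Cpt1b (3.22 and 2.90 units) and the brain form Cpt1c (1.24 and 1.23 units) were weakly covered in both pools, and Cpt1a was the form with by far the highest coverage in each.

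Around Pdk4, the other kinases did not share its direction. Pdk1 was at 9.15 units in the wild type pool and 13.9 in the TLR4ΔIEC pool (log2 ratio 0.56), Pdk3 at 12.7 and 18.1 (0.48), and Pdk2 at 16.1 and 13.99 (-0.19). Each of these had more coverage than Pdk4 in both pools. Over pyruvate dehydrogenase kinases, phosphatases, subunits and the pyruvate carrier, 12 of 13 genes passed the filter, 4 below 0 and 8 above, with 0 at least 2-fold in either direction and a median of 0.28. The subunits Pdha1 (0.17), Pdhb (0.44) and Dld (0.38) and the carrier subunit Mpc1 (0.04) all had ratios above 0.

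Around Creb3l3, relatives and known targets parted. Of the other membrane-bound factors of its kind and the Golgi proteases that free them, 6 of 8 genes passed the filter, 2 below 0 and 4 above, with 0 at least 2-fold in either direction and a median of 0.12. Creb3 was at 41.6 units in the wild type pool and 38.8 in the TLR4ΔIEC pool (-0.10), and Mbtps1, which encodes the first of the proteases, at 31.4 and 29.5 (-0.09). Creb3l1 (6.07 and 8.17 units), Creb3l2 (3.14 and 5.35 units) and Creb3l4 (9.40 and 12.1 units) were low in both pools. Creb3 overlaps Tln1, and Esrra overlaps Trmt112, on the opposite strand, so their values are uncertain where strand was not used. Esrra also overlaps Mir6990 on its own strand. In wild type Creb3l3 was the family member of highest level, while in TLR4ΔIEC Creb3 was above it. Of 12 genes that CREB3L3 is known to activate, 6 passed the filter, all 6 below 0 and 4 of them at least 2-fold lower, with a median of -1.32. Apoa1, the main protein of high-density lipoprotein, was at 10545 units in the wild type pool and 3157 in the TLR4ΔIEC pool (-1.74), Apoc3 at 114 and 40.5 (-1.47) and Apoa4 at 633 and 278 (-1.19). Apoa4 is also on the list of upper small intestine genes. Apoc2, the activator of lipoprotein lipase, was at 61.7 and 52.7 (-0.23). The fasting hormone Fgf21, a liver target of both PPAR-alpha and CREB3L3 (named here with its value known), was listed at 0.09 units in the wild type pool and 0.12 in the TLR4ΔIEC pool.

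Around Angptl4, the lipase system was weakly covered. Of 12 angiopoietin-like genes, vascular lipases and their helpers, 4 passed the filter, 1 below 0 and 3 above, with 0 at least 2-fold in either direction and a median of 0.25. Lpl, the lipase that ANGPTL4 inhibits, was at 2.13 units in the wild type pool and 1.98 in the TLR4ΔIEC pool, and Gpihbp1, its anchor on capillaries, at 5.62 and 3.83. Angptl2 was at 5.96 and 7.38 units, and Angptl6 was below 2 units in both pools. Sel1l, which matures lipoprotein lipase among other cargo, was at 18.01 and 26.8 units (0.55). Of the angiopoietin-like genes examined, Angptl4 thus had the highest coverage in both pools.

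Other signals can raise Angptl4 and Pdk4, so their genes were described as well. Of 24 genes tied to fasting, FOXO factors or glucocorticoid, 19 passed the filter, 15 below 0 and 4 above. Of these, 3 were at least 2-fold lower and 0 higher, and the median was -0.62. The list also holds the factors Foxo1 and Foxo3 and the glucocorticoid receptor Nr3c1, not only genes that they raise. Sgk1 was at -1.71, Txnip at 289 units in the wild type pool and 138.8 in the TLR4ΔIEC pool (-1.05), Gadd45a at -0.69 and Ddit4 at -0.62. The gluconeogenic phosphatase G6pc, a weakly covered gene singled out with its value known, was at 12.4 and 1.53 units (-2.41). Among the 4 above 0, Fkbp5, also named with its value known, was at 15.8 and 23.9 units (0.56). Of 15 hypoxia targets 13 passed the filter, 7 below 0 and 6 above, with 2 at least 2-fold lower and 1 higher, and a median of -0.04. Ldha was at -0.45, Egln1 at -0.31, Ndrg1 at -0.30 and Egln3 at 0.28. Both the fasting list and the target lists were chosen with earlier results of these data known, so their direction is not independent support.

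**Figure D3:**
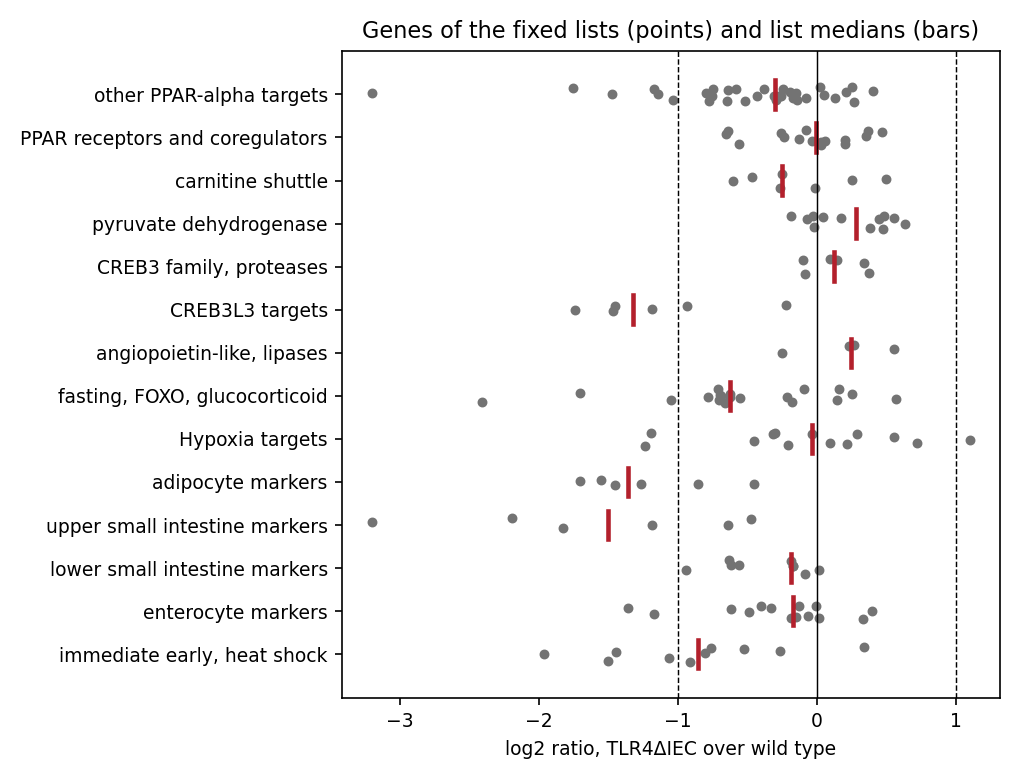
Log2 ratio of TLR4ΔIEC over wild type (horizontal axis) for the genes of 14 lists that passed the filter (points, spread vertically for legibility), with list medians as bars, a line at 0 and dashed lines at 2-fold. CREB3L3 targets (-1.32), adipocyte markers (-1.36) and upper small intestine markers (-1.51) have the lowest medians, and the PPAR receptors (-0.01) and hypoxia targets (-0.04) lie near 0.

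Markers of other cells and of tissue handling moved along with Angptl4 and Creb3l3. Adipocytes express Angptl4 and Pdk4, and of 11 adipocyte markers 6 passed the filter, all 6 below 0 and 4 of them at least 2-fold lower (median -1.36). Summed over all 11, their level was 250 units in the wild type pool and 124 in the TLR4ΔIEC pool, most of it Fabp4 (165 and 91.2 units), which endothelium and macrophages also express. The defining adipocyte hormone Adipoq, named after its value was seen, was at 9.63 and 3.42 units, Plin1 at 1.21 and 0.61 and Lep at 0.78 and 0.55, so none was at 0. Cidec and Cidea are on both this list and that of CREB3L3 targets. The part of fat tissue in the values of Angptl4 and Pdk4 was not tested. Of 8 genes of the upper small intestine 6 passed the filter, all 6 below 0 and 4 at least 2-fold lower (median -1.51, summed level 1401 and 472 units). Colon markers went the other way: 3 of 6 passed, all 3 above 0 and 2 at least 2-fold higher (median 1.53, summed level 56.1 and 129 units). The 3 were Mptx1 at 1.72, Slc26a3 at 0.24 and Saa3, named after its value was seen, whose 1.53 is the median. The defining colon genes Car1 and Aqp8 were below 1 unit in both pools. With no filter the colon median was 0.15, so the 1.53 rests on the 3 genes that passed. The part of the place along the intestine from which tissue was taken was not tested. Lct and Gata4, which define the upper small intestine, were below 1 unit in both pools. Of 8 enteroendocrine markers 6 passed, 5 below 0 and 3 at least 2-fold lower (median -1.06, summed level 658 and 258 units). Sct was at -1.75, Nts at -1.72 and Pyy at -1.36. The well covered Gcg, named after its value was seen, was even, at 61.4 and 61.5 units (0.002). The part of enteroendocrine cells was not tested either.

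Markers of the ileum itself and of enterocytes moved less. Of 9 genes of the lower small intestine all passed the filter, 8 below 0 and 0 at least 2-fold in either direction (median -0.19, summed level 17780 and 15720 units). All 14 enterocyte markers passed, 11 below 0 and 2 at least 2-fold lower (median -0.17, summed level 9516 and 6630 units). Fabp2, the highest of them and also on the list of PPAR-alpha targets, weighs most on that sum, at 3942 and 1750 units. The alkaline phosphatase Alpi was at -1.36 and Apob at -0.49, while the villus protein Vil1, named after its value was seen, was at 589 and 584 units. Creb3l3 is also a gene of hepatocytes, of whose 8 markers 1 passed the filter. That marker, Cyp2e1, was at 6.58 units in the wild type pool and 3.67 in the TLR4ΔIEC pool (-0.70). The summed level of all 8 was 19.2 and 18.4 units. Albumin (Alb), below the filter and named after its value was seen, went the other way and weighs on that sum. It was at 0.84 units in the wild type pool and 6.11 in the TLR4ΔIEC pool. Genes of the immediate early and heat shock responses, which react to tissue handling, were lower in TLR4ΔIEC in 9 of 10 genes that passed (of 13), with 4 at least 2-fold lower and a median of -0.86. Among them Junb (-1.51), Fos (-1.45), Jun (-1.06) and Btg2 (-0.91) were the well covered genes with the lowest ratios. The summed level of all 13 genes was 375 and 183 units. Their part in the values of Angptl4 and Creb3l3 was not tested.

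Markers of immune cells moved the other way. All 6 T cell markers that passed, of 8, had ratios above 0 (median 0.77, summed level 103 and 274 units), as did all 6 plasma cell markers that passed (median 1.29, 416 and 1022 units), and 4 of 5 macrophage markers that passed did so (median 0.71, 904 and 1679 units). Single genes weigh most on these sums: Gzma (57.6 units in the wild type pool and 196 in the TLR4ΔIEC pool), Igj (202 and 703) and Lyz2 (691 and 1390). Smooth muscle, which oxidises fat and could hold Cpt1a and Ppargc1a, was nearly even: all 7 markers passed with ratios above 0 and 0 at least 2-fold higher (median 0.11, summed level 891 and 1046 units). Striated muscle markers summed to 23.3 and 22.5 units. Housekeeping genes had a median of 0.24, with 12 of 15 above 0 and 0 at least 2-fold in either direction. The shares of these cells in the 2 pools, and their part in the 6 values, were not tested.

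**Figure D4:**
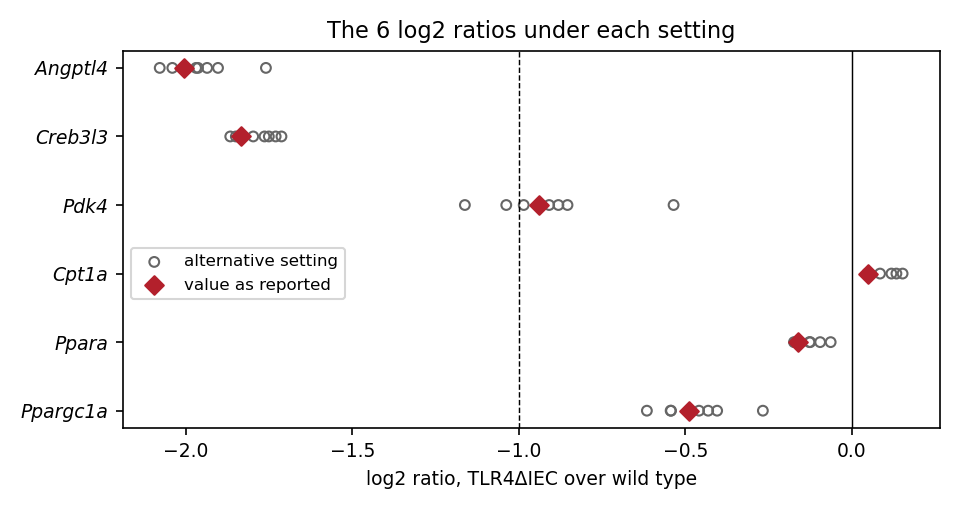
Log2 ratio of TLR4ΔIEC over wild type (horizontal axis) for each of the 6 genes as reported (diamonds) and under the alternative settings (open circles), with a dashed line at 2-fold lower. Angptl4 stays between -2.08 and -1.76 and Creb3l3 between -1.87 and -1.71, whereas Pdk4 runs from -1.16 to -0.54 across the line.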

How the data were processed

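Per the file headers, the authors deposited average coverage per RefSeq transcript entry, a signal of mean reads per base. Per the labels, 1 column belongs to all 3 mice of a genotype. The submitters' processing notes name TopHat2 2.0.10, Bowtie2 2.1.0 and build mm10 without roles. The tool behind the averages, the length of reads and whether strand was used: not given in the sources used here. Read numbers were therefore not estimated, and counting intervals are not given. Bases of reads and lengths were recovered as the ratio of whole numbers, in lowest terms (tolerance 1e-11), that gives each average.

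The 22001 entries in both columns gave 21950 symbols, each represented by its entry of highest mean. Columns were scaled by the median of ratios (factor 1.05) to a mean total of 1000000 units. A coverage of 3.41 in wild type or 3.58 in TLR4ΔIEC equals 5 units, the filter. Log2 ratios used a pseudocount of 1 unit, which makes the ratios of low genes too small. A gene was called where it differed by 2-fold. With pooled columns no test could be run. Only the scaling and the log2 ratios were tested on simulated data, with differences put into genes of at least 20 units. Named genes were the 6 members, Tlr4, close relatives, the 3 nearest genes, and of each of 25 lists up to 4 genes of at least 20 units with the highest absolute ratio. Some genes that this rule takes are not reported here. The members and lists were chosen with earlier results of these data known. Gene coordinates were taken from GENCODE vM21 (GRCm38, which is mm10) and promoter windows from RefSeq (GRCm38.p6). Alternatives were other scalings, pseudocounts and filters, the mean over entries, and genes with the same length in both columns. Python 3.11.15 was used with numpy 2.4.6 and pandas 2.3.3.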

Additional observations from a re-analysis of the deposited data

How the results depend on the processing

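Angptl4 and Creb3l3 were at least 2-fold lower under all 12 alternative settings, with log2 ratios from -2.08 to -1.76 and from -1.87 to -1.71. Of these, the 3 filters and the requirement of the same length cannot change the ratio of a single gene. Cpt1a stayed between 0.05 and 0.15, Ppara between -0.17 and -0.06 and Ppargc1a between -0.62 and -0.27. Pdk4 passed 2-fold with a pseudocount of 0.5 (-1.04) and with none (-1.16). Pdk4 and Ppara have no value where the same length was required. The median of the members kept, -0.998 as reported and just short of 2-fold, was -0.71 for all 6 members (a filter at 1 unit, or none), -0.90 on the scale set by all but the 50 highest genes, -0.92 with a pseudocount of 5, -1.01 with a pseudocount of 0.5, -1.02 with none, -1.83 at a filter of 20 units and -1.83 with the same length required. Fewer members enter at 20 units or with the same length. The median of PPAR receptors and coregulators turned from -0.01 to 0.12 when the sum of all but the 50 highest genes set the scale. It was 0.09 with the total and 0.06 with the upper quartile. A filter at 1 unit, no filter and the mean over entries each gave 0.03, whereas a filter at 20 units gave -0.26. The cause was not tested. Of all genes, 248 were lower and 115 higher by 2-fold. A pseudocount of 5 left 146 lower and 65 higher, a filter at 1 unit gave 380 and 206, one at 20 units gave 130 and 58, and no filter gave 395 and 222. The share higher was 31.7%, and 44.9% (154 higher and 189 lower) on the scale set by all but the 50 highest genes. With no filter the median was -0.93 for CREB3L3 targets, -0.85 for adipocyte markers and -0.91 for upper small intestine markers. It was then -0.70 for enteroendocrine markers and 0.15 for colon markers. Upper small intestine markers had a median of -0.64 with the same length required. That of enteroendocrine markers was -0.76 at a filter of 1 unit, -0.88 with a pseudocount of 5 and -0.99 with the total. A pseudocount of 5 gave -0.95 for adipocyte and 0.98 for plasma cell markers. No replicate could be left out and no paired analysis was possible because the columns are pools. Since depth in reads is not known, weakly covered genes such as Pdk4, Ppargc1a, Lpl and Tlr4 have values of unknown precision.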
